A study of Rattus norvegicus with 9 samples.

Results

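Sugen-hypoxia day 56 was compared with Sugen-hypoxia day 28 in peripheral blood mononuclear cells (PBMC, the lymphocytes and monocytes of blood with whatever other cells remain after their isolation) of wild-type Sprague-Dawley rats. Each day had 3 RNA sequencing libraries, 6 of the 9 in the study. The other 3 came from wild-type rats in normoxia at day 0 and entered the fit to estimate the spread. No label names a transgene or a deleted gene in any group, and the labels give no dose, length of hypoxia, sex or age. All genes on intact lines of the deposited table were included: 22077, of which 12447 had enough exon reads to be tested. The labels do not say whether replicates were separate animals. The p-values therefore speak only of the spread among these libraries, part or all of which may be technical.

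Sugen (SU5416) blocks the receptors of vascular endothelial growth factor. Given with a period of low oxygen, it produces pulmonary hypertension in rats, and the vascular lesions progress after the animals return to room air. Circulating lymphocytes and monocytes are sampled in such models because inflammatory cells gather around the diseased lung arteries. In its title the series names AHR, the aryl hydrocarbon receptor, which turns on genes once a ligand is bound, as its subject in this disease. Comparing the days asks which blood cell transcripts differ between a late and an earlier time of the model.

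The 9 libraries held 22148400 to 39947430 exon reads. Defining T cell, B cell, monocyte and NK cell genes such as Cd3e, Cd79b, Csf1r and Nkg7 were present in all 9. The 5 globin-locus genes with the most reads took 1.42%, 4.83% and 29.0% of exon reads at day 28, 40.5% to 44.4% at day 56 and 43.0% to 56.3% in normoxia. The days did not overlap (11.7% ± 15.0 against 42.7% ± 2.01, SD, n = 3 each; exact permutation p = 0.1, two-sided, the smallest that 3 against 3 allows). The share of reads in introns was 20.2% ± 5.45 at day 28 and 14.3% ± 2.48 at day 56 (exact permutation p = 0.2). Day 28 library 3, the one with 29.0% globin reads, stood apart from the other day 28 libraries in red cell genes, and normoxia library 1 from the other normoxia libraries on the first principal component. The 3 day 28 columns carry consecutive code numbers and those of the other groups do not. What the codes number is not stated, and the run of codes and day 28 cannot be told apart.

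Between the days 53 of 12447 genes rose (0.426%) and 15 fell (0.121%) at an adjusted p under 0.05, by the quasi-likelihood test of edgeR with Benjamini-Hochberg adjustment over all tested genes. All adjusted p-values below are from that test. For each of the 68 called genes (0.546%) the 3 values of one day lay outside those of the other. That was also so for 17.8% of all tested genes in the upward and 17.4% in the downward direction. Counts without overlap in the gene lists below are to be read against these shares. An unadjusted p under 0.05 was reached by 2302 genes (18.5%). The calls depended on single libraries: 9 genes higher and 5 lower were called without day 28 library 1, 7 and 3 without day 28 library 2, and 185 and 78 without day 28 library 3. Leaving out a day 56 library gave between 2 and 5 higher and between 1 and 6 lower. Without normoxia library 1, 580 were higher and 422 lower, and without libraries 2 and 3 of normoxia 28 and 11, and 31 and 9. Of the 68 calls 12, 8 and 63 were kept without day 28 libraries 1, 2 and 3, 7, 3 and 4 without those of day 56, and 68, 36 and 38 without those of normoxia. DESeq2 called 599 higher and 487 lower, or 55.2% of calls higher against 77.9% here. With the share of intron reads as a covariate 35 of the 68 calls were kept, and Slc25a37 (adjusted p = 0.066), Xpo7 (0.062), Phf7 (0.093), Faslg (0.095) and Cenpw (0.106) were among those lost. Each of the 68 genes had the same direction in every alternative analysis that tested it, 20 for 57 of them and 19 for the other 11, which were not tested on uniquely mapped reads. With no overlap between the days, leaving out a library could hardly reverse a direction. All 9 analyses that left out 1 library called Rasgef1b, Sh2d2a and the unnamed gene AABR07018038.2, and no other gene of the 68.

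Rasgef1b, a guanine nucleotide exchange factor for Ras-family GTPases, had the smallest p of all genes. In CPM (exon read counts scaled to a common library size with TMM factors) it stood at 11.6, 11 and 14.1 in the day 28 libraries and 92.9, 77.2 and 77.5 at day 56. The normoxia libraries, with 7.62, 10.9 and 9.21 CPM, lay just below the day 28 level, so the high values were those of day 56. The log2 fold change of Rasgef1b was 2.75 (SE 0.19, adjusted p = 0.0008), a mean 6.74-fold higher. It kept a log2 fold change between 2.66 and 2.87 whichever library was left out. The gene (ENSRNOG00000002345) lies on chromosome 14 from 11988670 to 12027381 in rn6. Its introns were read 1162, 1216 and 404 times at day 28 and 3545, 2483 and 2519 times at day 56 (log2 fold change 2.13, adjusted p = 0.0045).

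Sh2d2a encodes an adapter protein of activated T cells that binds the kinase Lck. It stood at 34.7, 33.3 and 29.4 CPM at day 28 and 119, 108 and 126 CPM at day 56, with 22.9, 26.6 and 30.4 CPM in normoxia. The 3 day 56 libraries were high and the other 6 lay close together. The rise was 1.86 on the log2 scale (SE 0.16, adjusted p = 0.0033), 3.62-fold, and that of its intron reads was 1.97 (adjusted p = 0.009 in the fit of intron reads). Of 26 tested T cell markers edgeR called 0 in either direction, and their median log2 fold change was 0.28, against -0.01 for all genes. At an unadjusted p under 0.05 there were 3 higher and 0 lower, and DESeq2 called 2 higher. Cd3e, a subunit of the T cell receptor complex, had 204, 139 and 251 CPM at day 28 and 228, 211 and 276 CPM at day 56, overlapping values. Cd28, the costimulatory receptor, had the smallest p of the list (log2 fold change 0.90, SE 0.22, adjusted p = 0.095), followed by the receptor kinase Zap70 (0.60, SE 0.19, adjusted p = 0.142). Cd28 passed without day 28 library 3 (1.11, adjusted p = 0.0475).

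**Figure D1:**
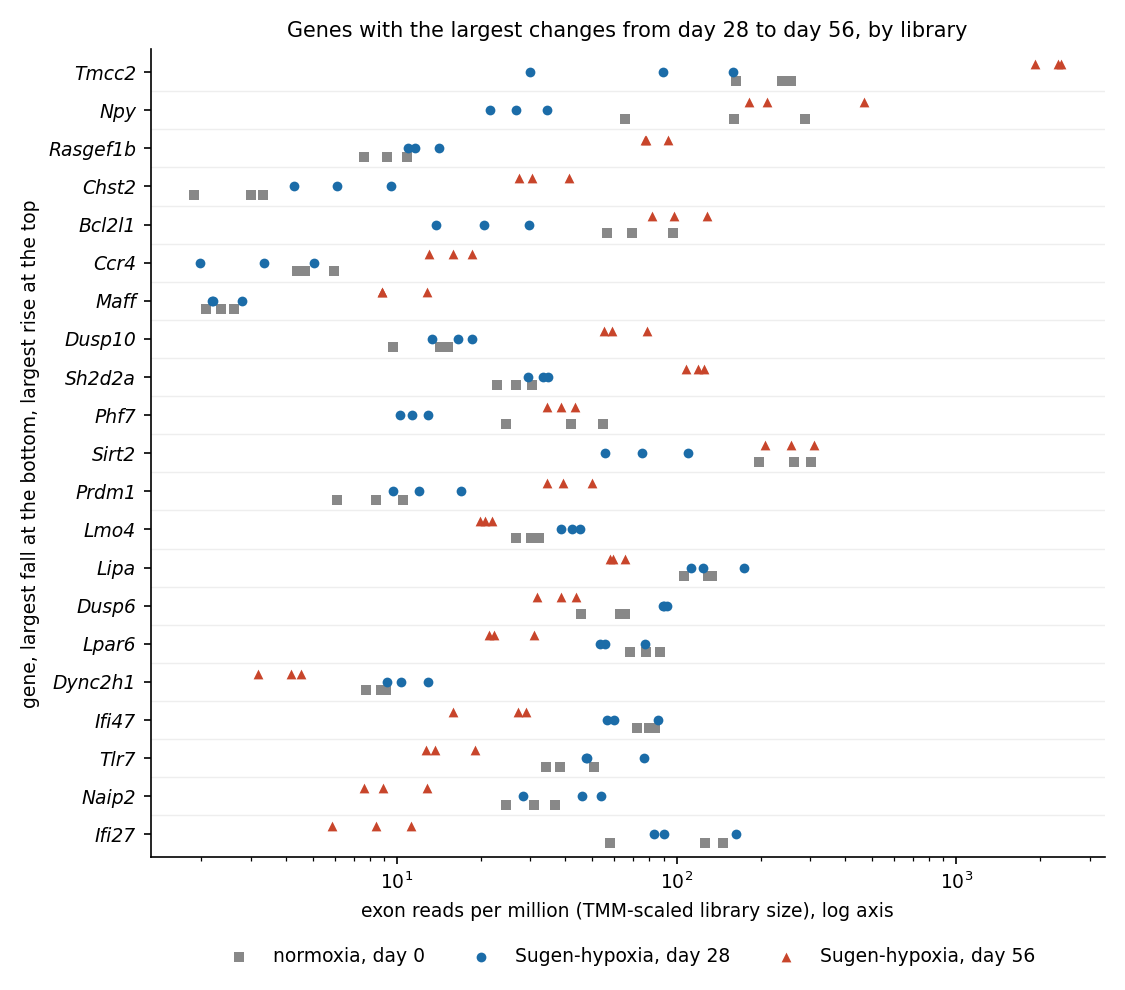
CPM of the 12 largest called rises and the 9 called falls with a symbol and a mean of at least 5 CPM, on a log axis, with 1 mark per library: squares for normoxia, circles for day 28 and triangles for day 56. In each row the 3 triangles lie wholly to one side of the 3 circles, and for Rasgef1b and Sh2d2a the squares lie beside or below the circles.

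Dusp10, a phosphatase that inactivates the p38 and JNK kinases, stood at 18.5, 13.4 and 16.6 CPM at day 28 and 78.4, 55.1 and 59.0 CPM at day 56 (log2 fold change 1.99, SE 0.23, adjusted p = 0.0147). Normoxia lay at 9.68 to 15.2 CPM, so day 56 was the high group. Dusp6, the phosphatase of the ERK kinases, moved the other way: it stood at 89.6, 92.5 and 89.9 CPM at day 28 and 38.5, 43.7 and 31.8 CPM at day 56. It fell by 1.25 (SE 0.19, adjusted p = 0.0291). Normoxia, at 45.4 to 65.7 CPM, lay between the days and overlapped neither. Errfi1, which inhibits the epidermal growth factor receptor, rose by 1.38 (SE 0.18, adjusted p = 0.0270), with 5.03 to 5.66 CPM at day 28 and 12.7 to 15.8 CPM at day 56. Dusp8 was read 6, 12 and 2 times at day 28 and 70, 41 and 52 times at day 56. Further called genes, which the rule for names did not reach and which were picked with their values in view, were the G protein regulator Rgs16 (1.67, SE 0.29, adjusted p = 0.0455), the insulin receptor substrate Irs2 (1.52, SE 0.24, adjusted p = 0.0330) and Phlda1 (1.63, SE 0.23, adjusted p = 0.0291).

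Immediate-early genes are transcription factors and regulators that a stimulus switches on within minutes. Of the 33 tested 1 rose and 0 fell, with a median log2 fold change of 0.65, and 17 lay higher and 1 lower without overlap. The called one was Maff, a small Maf protein that lacks an activation domain. It stood at 2.18, 2.79 and 2.21 CPM at day 28 and 12.9, 8.87 and 8.85 CPM at day 56. The normoxia libraries had 2.08 to 2.62 CPM, so that day 28 and normoxia shared one level. The log2 fold change was 2.09 (SE 0.24, adjusted p = 0.0147), 4.25-fold. The call was lost without some single libraries, with an adjusted p of up to 0.0693. DESeq2 called 11 of the list higher and 1 lower. The list median ran from 0.39 to 1.15 over the alternatives, the lower end without normoxia library 1 and day 28 library 3 and the upper with the globin share as a covariate. The AP-1 member Fos, named after its values were seen, had 238, 426 and 94.2 CPM at day 28 and 179, 243 and 192 CPM at day 56, so day 28 spanned the day 56 values (log2 fold change -0.31, SE 0.59, adjusted p = 0.840).

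The promoters of the called rises were searched for 5 short motifs on both strands. The sequences are from RefSeq on GRCr8, a newer build than the rn6 of the deposited table, in windows from 250 bases before to 50 bases after each start. Of the genes higher at day 56, 35 had a window, with 46 windows in all. The cyclic AMP response element TGACGTCA, which reads the same on both strands, was in 3 of these 46 windows (6.52%), those of Maff, Cenpw and Tgif2, against 1.83% of all 33469 windows. It was in 5 of the 24 windows of the immediate-early list (20.8%), that of Maff among them. The E-box CACGTG was in 5 of those 24 as well (20.8%). Each of the 5 motifs was in 0 of 16 windows of genes lower at day 56. The E-box CACGTG, the AP-1 site TGANTCA and the AHR core TNGCGTG were each in 2 of the 46 windows (4.35%), against 6.42%, 7.33% and 4.89% of all windows. The kappa B site, an NF-kB motif, was in 0 of 46, against 0.111%. The 250 bases before the start of Maff, at chr7:112792537-112792786, and of Cenpw, at chr1:29353720-29353969, both on the plus strand of GRCr8, are shown because they hold the element upstream of the start. Capitals mark the element, which begins 51 bases before the start in Maff and 29 in Cenpw.
Maff: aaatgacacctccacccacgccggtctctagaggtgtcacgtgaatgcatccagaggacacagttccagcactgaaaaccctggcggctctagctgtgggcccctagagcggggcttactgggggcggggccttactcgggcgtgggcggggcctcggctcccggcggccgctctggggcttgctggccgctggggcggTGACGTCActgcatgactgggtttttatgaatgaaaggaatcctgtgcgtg
Cenpw: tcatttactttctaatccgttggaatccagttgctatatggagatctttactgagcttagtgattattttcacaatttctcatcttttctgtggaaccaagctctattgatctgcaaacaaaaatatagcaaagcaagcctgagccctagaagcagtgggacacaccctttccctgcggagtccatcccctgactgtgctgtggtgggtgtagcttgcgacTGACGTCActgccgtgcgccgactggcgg
A match is a description of the letters in these windows. The elements were not tested in these samples.

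Of the other stress and signalling lists, few members passed. Among 26 tested NF-kB pathway and inflammatory genes, Nfkbid was the single call: this nuclear inhibitor of NF-kB stood at 11, 10.4 and 7.10 CPM at day 28 and 19.9 to 20.4 CPM at day 56 (log2 fold change 1.09, SE 0.19, adjusted p = 0.0424). The 3 day 56 values lay within a narrow band above all day 28 and normoxia values. The NF-kB list had a median of 0.28, with 7 higher and 2 lower without overlap. At an unadjusted p under 0.05 it had 7 higher and 1 lower, and DESeq2 called 4 higher. Glucocorticoid response genes had 1 call of 14, Errfi1, and a median of 0.67, with 7 higher and 0 lower without overlap. At that unadjusted p 5 were higher and 0 lower, and DESeq2 called 3 higher. Clock genes had 0 calls of 19 with edgeR, 5 higher at an unadjusted p under 0.05 and 3 higher with DESeq2, and 10 lay higher without overlap. Per1, a clock component that glucocorticoids induce, had 142, 98.4 and 48.9 CPM at day 28 and 363, 327 and 342 CPM at day 56 (log2 fold change 1.84, SE 0.37, adjusted p = 0.069). It passed without day 28 library 3 (adjusted p = 0.0485). Nr1d2, a clock repressor, had 0.79 (SE 0.18, adjusted p = 0.086). The labels give no hour of sampling.

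Herpud1 was the call among 16 tested genes of the unfolded protein response, which expands protein folding and disposal in the endoplasmic reticulum. It takes part in the disposal branch. Its values were 90.4, 57.8 and 65.0 CPM at day 28 and 217, 169 and 217 CPM at day 56, against 37.5 to 44.1 CPM in normoxia, so the 3 groups stood in 3 separate bands. The rise was 1.50 (SE 0.20, adjusted p = 0.0285). The list median was 0.27, and Hspa5, the main chaperone of the compartment, had 0.36 (SE 0.28, adjusted p = 0.562). Of 17 heat shock genes edgeR and DESeq2 called 0, and 1 was higher and 2 lower at an unadjusted p under 0.05, with Chordc1 at -0.73 (adjusted p = 0.145) and Dnajb4 at 0.58 (adjusted p = 0.160).

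Ccr4 and Ccr8 were the called chemokine receptors. Ccr4, the receptor for the chemokines Ccl17 and Ccl22 on memory and regulatory T cells, stood at 5.05, 3.35 and 1.98 CPM at day 28 and 15.8, 13 and 18.6 CPM at day 56. All day 56 values lay above those of normoxia too (4.38 to 5.97 CPM). The log2 fold change was 2.19 (SE 0.32, adjusted p = 0.0291). Ccr8, a second receptor of such T cells, was low, at 0.399, 0.279 and 0.224 CPM against 1.79, 2.35 and 2.88 CPM (2.94, SE 0.46, adjusted p = 0.0325). Of 17 tested chemokine receptors these 2 rose and 0 fell, and the list median was -0.03. Chst2, a sulfotransferase that helps to make ligands of the homing receptor L-selectin, rose by 2.31 (SE 0.32, adjusted p = 0.0285), from 9.49, 6.12 and 4.29 CPM to 41.3, 27.3 and 30.5 CPM.

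Prdm1, the transcription factor Blimp-1 of plasma cells and effector lymphocytes, stood at 12, 16.9 and 9.72 CPM at day 28 and 39.2, 34.3 and 49.7 CPM at day 56 (log2 fold change 1.67, SE 0.27, adjusted p = 0.0330). It was the single call among 9 plasma cell genes, whose median was 0.27. The antibody joining chain Jchain, at 21.9, 18.6 and 12.9 CPM against 23.5, 32.1 and 17.9 CPM, overlapped between the days (adjusted p = 0.436). Tnfsf9, the ligand of the costimulatory receptor 4-1BB and named after its values were seen, rose by 2.28 (SE 0.39, adjusted p = 0.0417), with 0.80 to 2.28 CPM at day 28 and 6.01 to 10.2 CPM at day 56. Of 19 B cell markers edgeR called 0 and DESeq2 1 lower, with 2 lower at an unadjusted p under 0.05 and a median of -0.20. Those with the smallest p were Tnfrsf13c, the receptor for the survival factor BAFF (-0.85, SE 0.22, adjusted p = 0.097), and Ralgps2 (-0.57, SE 0.21, adjusted p = 0.192).

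Faslg, the death ligand of cytotoxic lymphocytes, stood at 5.48, 8.10 and 9.69 CPM at day 28 and 19.5, 18.4 and 24.3 CPM at day 56, with 5.96 to 8.44 CPM in normoxia. It rose by 1.42 (SE 0.24, adjusted p = 0.0423) and was the single exon call among 25 tested NK and cytotoxic genes. The list median was 0.84, and 13 members lay higher and 1 lower without overlap. Gzmb, a granzyme of killer cells named after its values were seen, had 4.81, 12.4 and 12 CPM at day 28 and 31.5, 39.7 and 37.6 CPM at day 56, and missed the threshold in exons (log2 fold change 1.90, SE 0.34, adjusted p = 0.051). In intron reads Gzmb (2.49, adjusted p = 0.019), Gzma (1.78, adjusted p = 0.044) and Gzmk (1.70, adjusted p = 0.047) were the 3 called members. The summed level of the list was 842 to 1595 CPM at day 28, with library 2 the highest, and 1860 to 2593 CPM at day 56. In bulk RNA, more cells of a type and more RNA per cell cannot be told apart, here and for the other cell type lists.

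Of the 30 gene lists, the markers of red cell precursors had the highest median log2 fold change. Red cells lose their nucleus but keep RNA for a while as reticulocytes, so blood preparations carry it in varying amounts. Of 38 tested erythroid markers all had a higher estimate at day 56, 34 without overlap, but 3 passed the test. The list median was 2.09 and the summed level 850, 1532 and 4975 CPM at day 28, 10607 to 12241 CPM at day 56 and 7672 to 18103 CPM in normoxia. Day 28 was thus the low group, with library 3 the highest of its libraries. Gata1, the erythroid transcription factor, had 0 reads in 1 day 28 library. Alas2, the first enzyme of heme synthesis in red cells and named after its values were seen, had 52.5, 214 and 1124 CPM at day 28 and 2318, 2797 and 2856 CPM at day 56 (log2 fold change 2.52, SE 0.88, adjusted p = 0.170). Without day 28 library 3, 28 of the 38 were called higher and the median was 3.74. With the globin share as a covariate 0 were called and the median was 0.67.

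Tmcc2, a transmembrane protein gene on the erythroid list, had the largest of these changes. It stood at 29.9, 159 and 89.6 CPM at day 28 and 1916, 2378 and 2304 CPM at day 56. The rise was 4.57 on the log2 scale (SE 0.56, adjusted p = 0.0195), or 23.7-fold. Normoxia lay between, at 163, 257 and 238 CPM, whereas the normoxia values of Alas2, 2133 to 5225 CPM, spanned those of day 56. At day 28 library 2 was the highest for Tmcc2, and library 3 for the globin share. Intron reads of Tmcc2 gave 4.13 (adjusted p = 0.024). Slc25a37, the mitochondrial iron importer mitoferrin, rose by 1.32 (SE 0.21, adjusted p = 0.0330), from 9.97, 11.1 and 15.3 CPM to 29.0, 31.8 and 30.0 CPM. Xpo7, a nuclear exporter, stood at 62.1, 63.7 and 71.8 CPM and then 133, 131 and 113 CPM (0.93, SE 0.14, adjusted p = 0.0325). Its normoxia values, 72.7 to 79.3 CPM, lay just above day 28, so day 56 was the high group. Slc25a37 was also the single call among 21 heme and iron genes, whose median was 0.95.

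Several further rises had the order of groups of the erythroid sum, with day 28 low and day 56 near normoxia. Bcl2l1, the survival protein Bcl-xL, had 13.8, 20.5 and 29.8 CPM at day 28 and 81.7, 97.7 and 128 CPM at day 56, with 56.2 to 97.1 CPM in normoxia (log2 fold change 2.26, SE 0.32, adjusted p = 0.0291). Sirt2, an NAD-dependent deacetylase, stood at 55.5, 75.5 and 110 CPM and then 208, 258 and 309 CPM, with 198 to 304 CPM in normoxia (1.69, SE 0.29, adjusted p = 0.0415). In both genes library 3 was the highest at day 28. Phf7, a chromatin-associated zinc finger protein, rose by 1.75 (SE 0.27, adjusted p = 0.0325), with 10.3 to 12.9 CPM at day 28 and 34.3 to 43.4 CPM at day 56. Tspo2, a protein of the red cell line, was read 0, 5 and 3 times at day 28 and 73, 65 and 121 times at day 56. The globin share, the erythroid sum and these genes moved together between the days, and the part of red cell RNA in each was not tested. Without day 28 library 3 the calls of Tmcc2, Slc25a37, Xpo7, Bcl2l1, Sirt2 and Phf7 held, with log2 fold changes of 4.54, 1.52, 1.00, 2.58, 1.98 and 1.68. Other single libraries mattered more: of the 9 fits that left out 1 library, 6, 4, 2, 4, 2 and 4 kept these calls. The largest adjusted p in those fits ran from 0.0895 for Tmcc2 to 0.171 for Sirt2. With the globin share as a covariate none of the 68 genes passed, and the smallest adjusted p of any gene was 0.0554. The 68 log2 fold changes kept their sign under it, with a median ratio to the original of 1.03, while their SE grew 1.60-fold at the median. Those of Tmcc2, Slc25a37, Xpo7, Bcl2l1 and Sirt2 became smaller, at 3.80, 0.91, 0.80, 1.55 and 1.05. That of Phf7 was 1.82. With that covariate all 68 had an unadjusted p under 0.05, as did 960 of all genes. The 68 had been selected for small p in the same libraries, so this is no separate evidence for them.

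**Figure D2:**
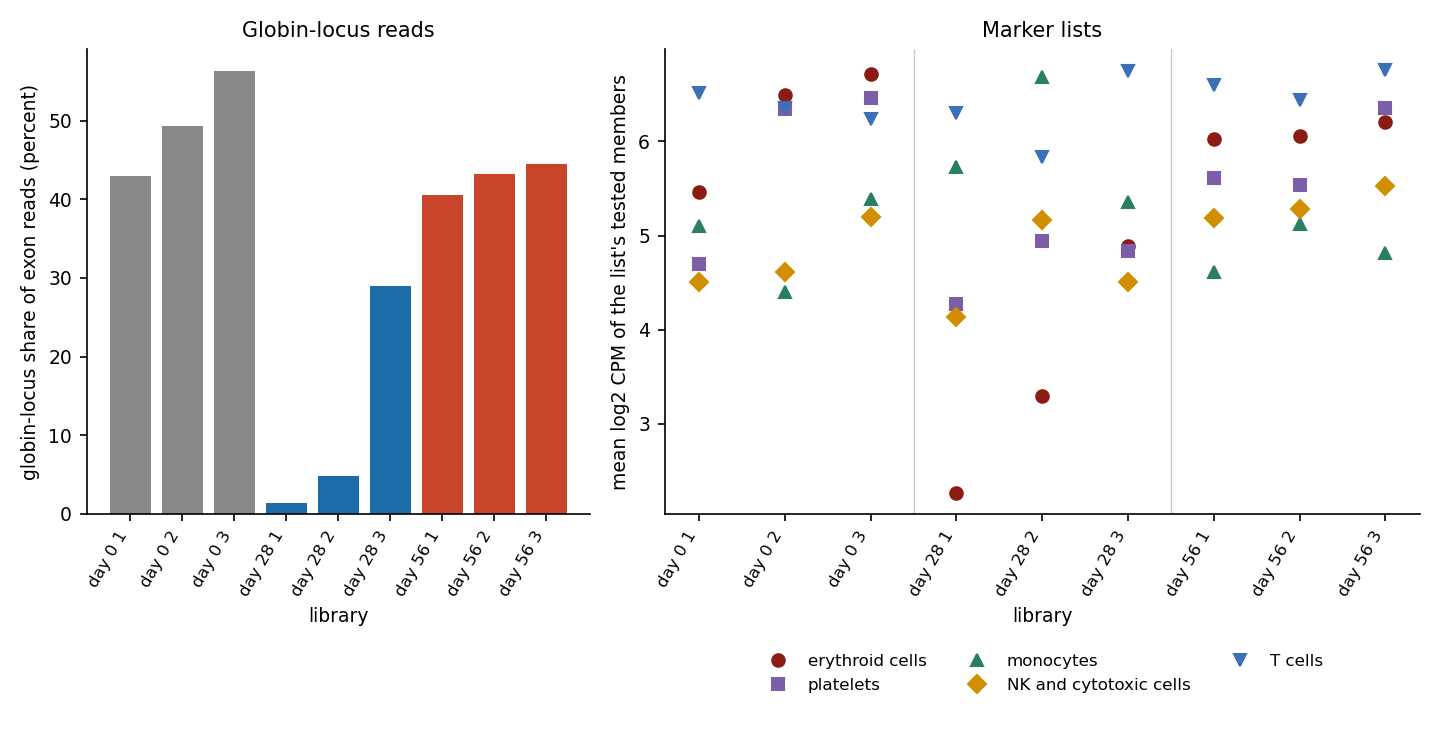
Left, the percent of exon reads in the 5 globin-locus genes, 1 bar per library from 0 (grey for normoxia, blue for day 28, red for day 56). Right, the mean log2 CPM of 5 marker lists in each library. The day 28 bars are 1.42%, 4.83% and 29.0%, below all day 56 bars, and the erythroid points of day 28 lie below those of both other groups, while the T cell points overlap.

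Platelet genes had a median log2 fold change of 1.25 over 29 tested members, with 22 higher and 0 lower without overlap. By edgeR 0 were called, and 17 were higher at an unadjusted p under 0.05. Their summed level was 1496, 2385 and 2013 CPM at day 28 and 4245, 4258 and 7681 CPM at day 56, so the day 56 library 3 stood above the others. In normoxia it ran from 1819 to 8059 CPM. The members with the smallest p were Gp1bb, a chain of the von Willebrand factor receptor (2.51, SE 0.54, adjusted p = 0.076), and Vwf, von Willebrand factor itself (1.14, SE 0.31, adjusted p = 0.102). In a fit of the 6 Sugen-hypoxia libraries alone, 12 platelet genes were called higher, as with DESeq2, and 16 were without normoxia library 1. With the share of intron reads as a covariate the median was 0.41 and 0 were called.

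**Figure D3:**
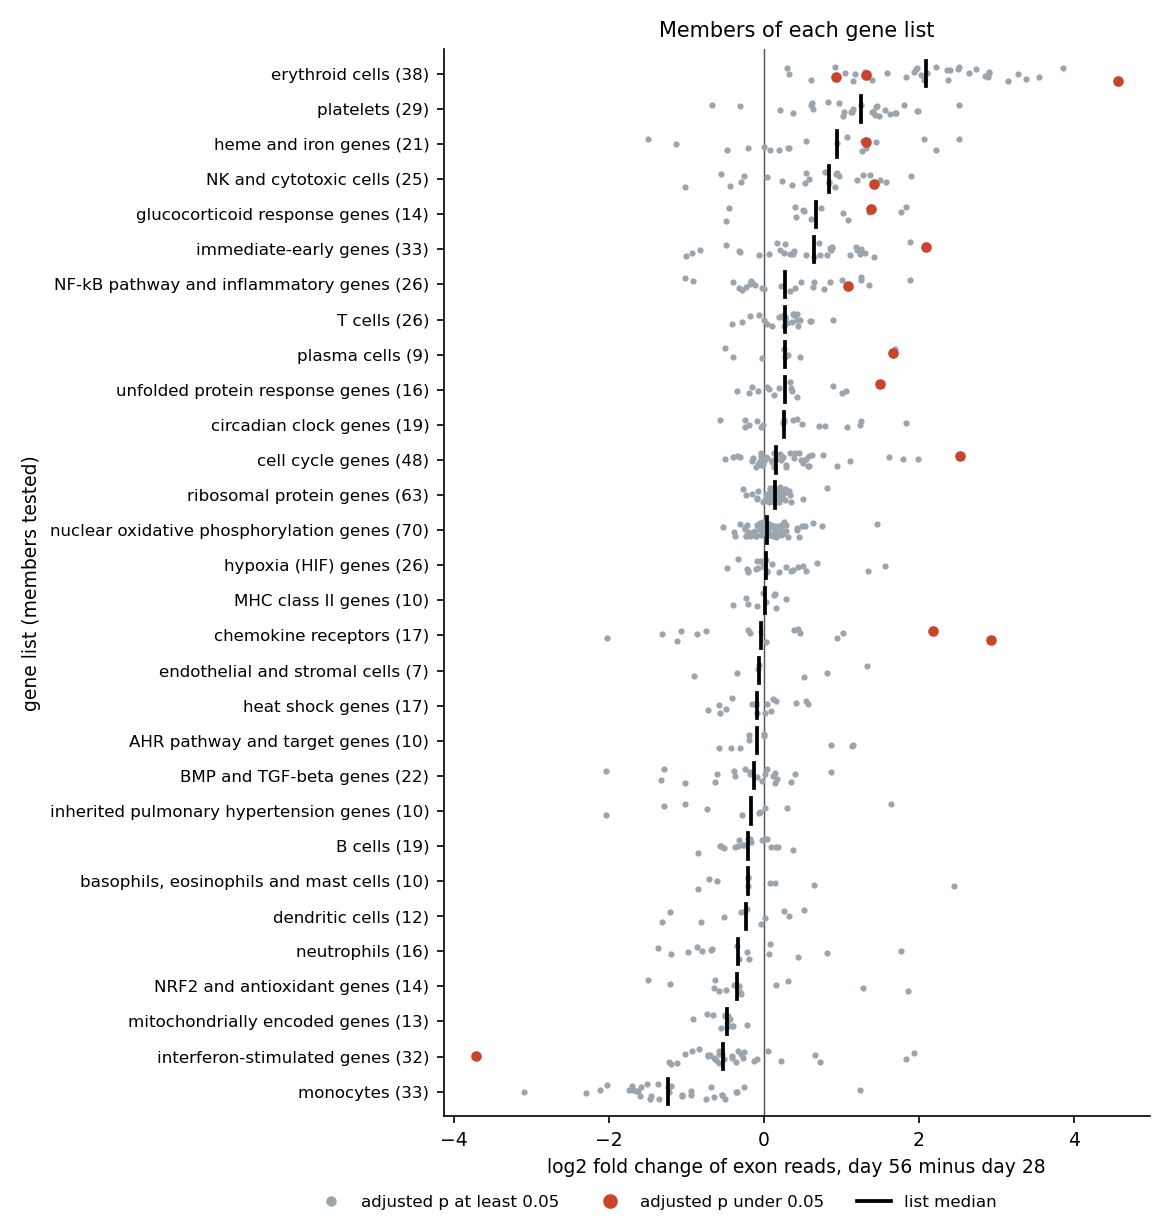
Log2 fold changes, day 56 minus day 28, of the tested members of 30 gene lists, sorted by list median (black bar), with red for an adjusted p under 0.05. Erythroid genes have the highest median, 2.09, and monocyte genes the lowest, -1.23, and red points are few in every list.

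Ifi27, an interferon-induced mitochondrial protein, had the largest fall among called genes with a symbol and a mean of at least 5 CPM. It stood at 82.8, 90.4 and 163 CPM at day 28 and 8.39, 5.84 and 11.3 CPM at day 56, and normoxia, at 58.1, 126 and 147 CPM, shared the day 28 range. It fell by 3.72 (SE 0.43, adjusted p = 0.0147), a mean 13.2-fold higher at day 28. Its introns (chromosome 6, 127327958 to 127334428, rn6) were read 345, 372 and 675 times at day 28 and 8, 4 and 9 times at day 56 (log2 fold change -5.77, adjusted p = 0.002). The low values were thus those of day 56 in both kinds of read. Ifi47, an interferon-inducible GTPase, fell by 1.49 (SE 0.25, adjusted p = 0.0413), from 59.9, 86.1 and 56.5 CPM to 27.2, 15.8 and 28.9 CPM. Of 32 tested interferon-stimulated genes 0 rose and 1 fell, Ifi27, and the median was -0.53, with 14 lower and 3 higher without overlap. The estimate was lower for 26 and higher for 6. At an unadjusted p under 0.05 there were 12 lower and 1 higher, and DESeq2 called 6 lower and 0 higher. Mx1 and Isg15, classical members named after their values were seen, overlapped between the days and do not stand for the list. Mx1 had -0.13 (SE 0.26, adjusted p = 0.840) and Isg15 0.22 (SE 0.46, adjusted p = 0.854).

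Tlr7, Naip2, Lipa, Lmo4 and Dync2h1 fell as well. Tlr7, the endosomal receptor for single-stranded RNA, stood at 48.0, 76.7 and 47.6 CPM at day 28 and 19.0, 13.7 and 12.7 CPM at day 56, with 34.1 to 50.6 CPM in normoxia. It fell by 1.93 (SE 0.26, adjusted p = 0.0285). Naip2, an inflammasome sensor of bacterial proteins, fell by 2.12 (SE 0.29, adjusted p = 0.0285), from 53.6, 28.2 and 46 CPM to 12.9, 8.91 and 7.64 CPM, and its intron reads by 2.10 (adjusted p = 0.007). Lipa, the acid lipase of lysosomes, fell by 1.17 (SE 0.20, adjusted p = 0.0400), from 124, 174 and 113 CPM to 59.5, 65.5 and 57.9 CPM. For all 3 genes the day 56 libraries lay below normoxia as well. Lmo4, a LIM-domain transcription regulator, fell by 1.02 (SE 0.14, adjusted p = 0.0285), from 38.6, 45.3 and 42.4 CPM to 19.8, 20.7 and 21.9 CPM. Dync2h1, a motor subunit of cilia, fell by 1.45 (SE 0.21, adjusted p = 0.0291) in exons, while its intron estimate was 0.24 (adjusted p = 0.731).

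Monocyte markers were lower at day 56 beside these genes. Of 33 tested 32 had a lower estimate, 22 without overlap, and 1 was higher without overlap, but 0 passed the test. Their median was -1.23, and at an unadjusted p under 0.05 there were 23 lower and 1 higher. The summed level was 6295, 14168 and 4766 CPM at day 28, with library 2 the highest, and 2907, 4178 and 3466 CPM at day 56. Normoxia, at 3645 to 6481 CPM, overlapped both days. Adgre1, the macrophage receptor F4/80, had the smallest p: 99.7, 114 and 67.8 CPM against 34.9, 42.1 and 33.5 CPM (-1.35, SE 0.27, adjusted p = 0.066). The chemokine receptor Ccr1 followed with -2.03 (SE 0.41, adjusted p = 0.071). DESeq2 called 18 of the list lower, and edgeR called 4 lower without day 28 library 3. The part of monocyte number in the falls of Tlr7, Naip2 and Lipa was not tested.

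In the other myeloid lists edgeR called 0 genes. Of 16 neutrophil genes 2 were higher and 3 lower at an unadjusted p under 0.05, and DESeq2 called 1 each way. Their median was -0.34, but 0.46 without day 28 library 2, with the granulocyte factor Cebpe at -1.37 (adjusted p = 0.126) and the decoy receptor Il1r2 at 1.77 (adjusted p = 0.145). Of 12 dendritic cell genes 1 was lower at that p and DESeq2 called 0 (median -0.23). Ccr9 had -1.32 (adjusted p = 0.168), a value that was -0.43 without day 28 library 3, and Clec10a had -1.21 (adjusted p = 0.291). Of 10 genes of basophils, eosinophils and mast cells 0 reached that p and DESeq2 called 0. There the lipoxygenase Alox15 had 17.4, 57.9 and 655 CPM at day 28 and 1234, 1829 and 928 CPM at day 56 (log2 fold change 2.45, adjusted p = 0.291). It passed without day 28 library 3 (5.14, adjusted p = 0.0326). The list median was -0.20. At day 28 the values of Alox15 rose in the order of the globin share of the libraries (1.42%, 4.83% and 29.0%). The part of red cell RNA in Alox15 was not tested. Of 7 tested endothelial and stromal genes edgeR and DESeq2 called 0, and 1 each way reached that p (median -0.06), with Pdgfrb at -0.90 (adjusted p = 0.250) and Esam at 1.33 (adjusted p = 0.255).

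The AHR pathway, the subject of the series title, had 0 edgeR calls between the days among 10 tested genes (median -0.10). At an unadjusted p under 0.05 there were 3 higher and 0 lower, and DESeq2 called 3 higher. Ahr stood at 13.9, 16.1 and 14.9 CPM at day 28 and 17.5, 15.0 and 12.3 CPM at day 56, overlapping values (log2 fold change 0.00, SE 0.17, adjusted p = 0.999). Its partner Arnt had 26.8, 30.4 and 27.5 CPM and then 24.4, 26.1 and 23.9 CPM (-0.19, SE 0.18, adjusted p = 0.646). The repressor Ahrr, an AHR target with 0 reads in all 3 normoxia libraries, stood at 6.54, 4.54 and 3.52 CPM at day 28 and 3.21, 5.59 and 3.95 CPM at day 56 (-0.20, SE 0.33, adjusted p = 0.819). It was therefore present at both days at overlapping levels. Tiparp, an AHR-induced enzyme that represses the receptor, had -0.43 (SE 0.25, adjusted p = 0.398), and the quinone reductase Nqo1 had -0.59 (SE 0.33, adjusted p = 0.395). Cyp1a1 and Cyp1b1, the classical targets, were not tested: for Cyp1a1 the day 28 libraries held 12, 7 and 1 reads and those of day 56 held 3, 2 and 5, and Cyp1b1 had 0 to 7 reads in any of the 6 libraries. The members with the smallest p were Slc7a5, which carries amino acids into cells (1.13, SE 0.24, adjusted p = 0.073), and Cyp2s1 (0.87, SE 0.27, adjusted p = 0.132). Intron reads of Cyp2s1 gave 1.61 (adjusted p = 0.047). Slc7a5 passed without day 28 library 3 (1.40, adjusted p = 0.0268). Leaving out day 28 library 2 or normoxia library 1 also gave 1 call on the list, higher at day 56.

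In lists tied to pulmonary hypertension, oxygen sensing and oxidative stress edgeR called 0 genes. Of 22 BMP and TGF-beta genes 1 was higher and 6 lower at an unadjusted p under 0.05, and DESeq2 called 1 higher and 3 lower (median -0.13), with Tgif1, a repressor of Smad signalling, at 0.87 (SE 0.20, adjusted p = 0.083). Its relative Tgif2, with 80.1% uniquely mapped reads and outside the list, rose by 1.45 (SE 0.22, adjusted p = 0.0325). Of 10 tested genes of inherited pulmonary hypertension 3 were lower at that p, and DESeq2 called 2 lower (median -0.17). Acvrl1, a BMP receptor, had 6.57, 8.86 and 4.83 CPM at day 28 and 2.42, 3.57 and 2.28 CPM at day 56 (-1.29, SE 0.37, adjusted p = 0.120). Its co-receptor Eng had 6.78, 18.9 and 1.92 CPM and then 2.08 to 2.54 CPM (-2.04, SE 0.68, adjusted p = 0.153), and passed without day 28 library 3 (-2.52, adjusted p = 0.0369). Bmpr2, the receptor most often mutated in the inherited disease and named after its values were seen, had -1.02 (SE 0.40, adjusted p = 0.214). Of 26 HIF genes 4 were higher at that p and 2 by DESeq2 (median 0.03), with the oxygen sensor Egln3 at 1.56 (SE 0.38, adjusted p = 0.094) and Vegfa at 1.34 (SE 0.39, adjusted p = 0.123). Of 14 NRF2 and antioxidant genes 2 were higher and 4 lower at that p, and DESeq2 called 2 each way (median -0.35), with catalase, Cat, at 1.28 (adjusted p = 0.103) and heme oxygenase, Hmox1, at -1.50 (adjusted p = 0.105). Cat passed without day 28 library 3 (1.74, adjusted p = 0.0318).

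Of 48 cell cycle genes the centromere protein Cenpw was the single call, read 14, 19 and 15 times at day 28 and 55, 68 and 86 times at day 56 (log2 fold change 2.54, SE 0.44, adjusted p = 0.0448), and the list median was 0.16. Of the 9 fits that left out 1 library, 2 kept the call of Cenpw. Its adjusted p was up to 0.173 in them, and 0.0503 without day 28 library 3. Normoxia, at 1.71 to 5.78 CPM, was not below day 56 (2.05 to 2.88 CPM). By edgeR 0 of 63 ribosomal protein genes (median 0.14), 70 nuclear oxidative phosphorylation genes (0.03), 10 MHC class II genes (0.01) and 13 mitochondrially encoded genes (-0.48) were called. All 13 mitochondrially encoded genes had a lower estimate at day 56. Of them 2 lay lower without overlap (15.4%, against 17.4% of all tested genes). Their median ran from -0.90 without day 56 library 1 to -0.27 without day 28 library 3. DESeq2 called 1 ribosomal and 1 oxidative phosphorylation gene higher and 0 in the other lists. At an unadjusted p under 0.05 there were 1 ribosomal gene higher, 3 oxidative phosphorylation genes higher and 1 lower, and 0 in the other lists. Within these lists the smallest p belonged to Rplp2 (0.81, adjusted p = 0.101), Atp5if1 (1.46, adjusted p = 0.143), RT1-DMb (-0.40, adjusted p = 0.533) and Mt-nd3 (-0.92, adjusted p = 0.302). Next came Rps2 (0.28, adjusted p = 0.594), Ndufs1 (-0.37, adjusted p = 0.184), RT1-DOa (0.29, adjusted p = 0.696) and Mt-co2 (-0.74, adjusted p = 0.337).

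Some calls rest on genes whose reads the counting could not place singly. Of the 68 genes, 13 had under 80% uniquely mapped exon reads, 9 higher and 4 lower, and their values are uncertain. A family of 6 unnamed genes, 5 on chromosome 14 and AABR07063424.1 on chromosome 6, had 0% unique reads. Their log2 fold changes were 2.60 to 3.05 in exons and 2.58 to 2.90 in introns, and, sharing reads, they count as 1 observation. Npy, neuropeptide Y, had 5.03% unique reads and 21.6, 26.6 and 34.4 CPM at day 28 against 182, 211 and 467 CPM at day 56 (3.38, SE 0.56, adjusted p = 0.0364). Lpar6, a receptor for lysophosphatidic acid, fell by 1.32 (SE 0.21, adjusted p = 0.0330) with 0.0698% unique reads. AABR07018038.2 (chromosome 15, 36878810 to 36947110, rn6; 10.9% unique) was read 377, 461 and 243 times at day 28, 3, 4 and 5 times at day 56 and 124 to 471 times in normoxia (-6.00, SE 0.54, adjusted p = 0.0036). Hprt1, a purine salvage enzyme gene with 0% unique reads, was read 48, 97 and 35 times at day 28 and 0, 1 and 0 times at day 56. AABR07000398.1, by contrast, had 100% unique reads (chromosome 1, 11963835 to 11968939, rn6). It stood at 146, 209 and 122 CPM at day 28 and 1047, 1144 and 795 CPM at day 56, above the 396 to 538 CPM of normoxia (2.65, SE 0.28, adjusted p = 0.0099).

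Intron reads, which come mostly from RNA not yet spliced, gave a second readout of the same libraries. In introns 66 of 11713 tested genes were higher (0.563%) and 42 lower (0.359%), 108 in all (0.922%). Of the 68 exon calls 55 could be tested in introns, 53 had the same sign there, and 20 were called the same way, 15 of 44 rises and 5 of 11 falls. Rasgef1b, Sh2d2a, Tmcc2, Ifi27, Naip2 and Lipa were among them. For other genes the exon and intron values stood apart. Sirt2 had 1.69 in exons and -0.03 in introns (adjusted p = 0.962), Bcl2l1 2.26 and 0.64 (0.433), Phf7 1.75 and 0.16 (0.583), Slc25a37 1.32 and 0.12 (0.750) and Xpo7 0.93 and 0.06 (0.895). Such gaps were not limited to the genes named with red cell RNA. Errfi1 had 1.38 and 0.38 (0.574), Irs2 1.52 and 0.45 (0.689) and Maff 2.09 and 0.95 (0.139). Faslg, by contrast, had 1.42 and 1.45 (0.0503), and Nfkbid 1.09 and 1.42 (0.088). Over the 31 erythroid genes tested in introns, the median log2 fold change was 0.85 in introns and 2.02 in exons of the same genes. For the 25 platelet genes the medians were 1.39 and 1.40. Exons and introns come from the same libraries, so a match between them is no replication, and the difference between the readouts was not tested.

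**Figure D4:**
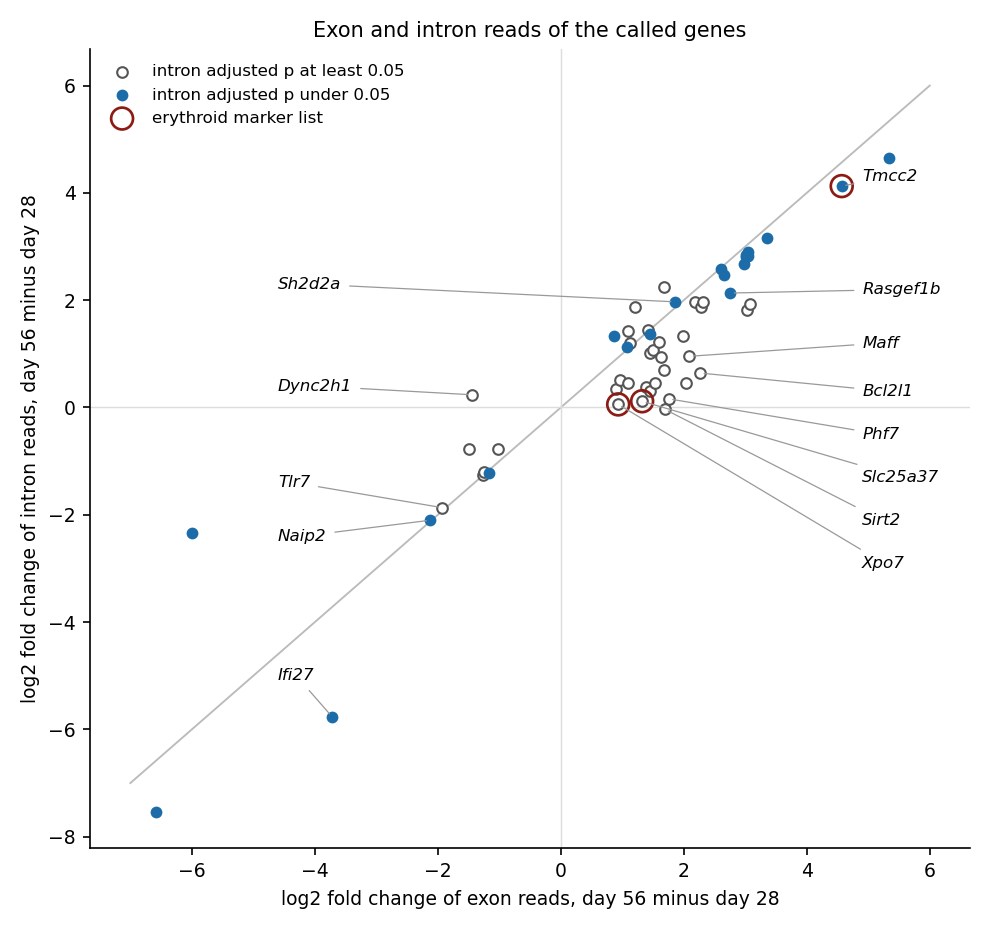
Exon (horizontal) and intron (vertical) log2 fold changes, day 56 minus day 28, of the 55 called genes tested in both, with the line of equality. Filled points have an intron adjusted p under 0.05 and ringed points are on the erythroid list. Ifi27 lies at -3.72 and -5.77 and Tmcc2 at 4.57 and 4.13, while Sirt2 and Slc25a37 lie near 0 on the intron axis.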

How the data were processed

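Per the file headers, the authors deposited 1 table with, for each Ensembl gene and library, exon read counts (raw, reads mapping to several places included), uniquely mapped exon reads, intron reads and RPKM (per exon length and mapped reads). In the replicate 1 columns of unique and intron reads the deposited values were formally expected counts, because of a fraction on 1 broken line; they are whole on every line used, so no rounding changed them. RPKM computed by the authors was not tested. Per the submitters' processing notes, FastQC was used and the build is rn6. No source used here names the aligner, its settings or strandedness, so antisense and overlapping genes cannot be separated. Per the labels' protocols, total RNA was taken up in Trizol and purified on columns with a DNase step before Illumina libraries were made. Of 22085 lines 22077 were intact; Bmp4, Ctnnb1, Shh and Wnt5a, broken over 8 lines, were left out. In 25 lines the symbol had become a date and 262 symbols carried a suffix, so identifiers were used. Another 90 columns of values per sample were not used.

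Groups follow the labels. Genes were tested with edgeR 4.0.16 (robust quasi-likelihood F-test, TMM factors, default filterByExpr filter, R 4.3.3) on all 9 libraries with a mean for each group, contrast day 56 minus day 28, and Benjamini-Hochberg adjustment at 0.05. The common biological coefficient of variation was 0.280. SE was derived from the F statistic. A count of 3 reads corresponded to 0.0762 to 0.195 CPM; floors cover counting error only. None of the 9 pairs of libraries within a group agreed within sampling noise. Intron reads were fitted the same way. Tested on data simulated for this comparison, the script recovered 32.3% of 65 genes changed by 1 log2 unit, 79.1% of 67 changed by 2 and 92.2% of 64 changed by 3, with 7 false calls among 11986 other genes. The simulated counts varied independently from gene to gene, with normoxia set equal to day 28. Real libraries differed in whole groups of genes, such as those of red cells, so these rates may not hold for them.

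The members, the gene lists and the tests were chosen with earlier results of these data known. Named were 7 AHR genes; the 12 largest called rises and falls with a symbol, at least 5 CPM and no overlap (9 falls qualified), globin genes left out; in each of 30 lists up to 4 called members or, with none, the 2 of smallest p; and the 5 calls of smallest p. All other genes were named after their values were seen. Alternatives were DESeq2 1.42.0, RLE and upper-quartile factors, no filter, unique reads, the 6 Sugen-hypoxia libraries alone, globin genes left out, the globin share (log2) or the intron share as a covariate, a replicate block, each library left out, and, chosen after seeing the data, the fit of intron reads and normoxia library 1 with day 28 library 3 left out. Promoter sequences are from RefSeq, whose table held 16511 of the symbols.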

Additional observations from a re-analysis of the deposited data

How the results depend on the processing

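Of the alternatives on exon reads, those with RLE or upper-quartile factors, unique reads, globin genes left out or the intron share as a covariate kept the counts of 53 genes higher and 15 lower within 1.5 times. Not all were the same genes: 67, 68, 55, 63 and 35 of the 68 calls were kept, in that order. The fit of the 6 Sugen-hypoxia libraries alone gave 380 higher and 210 lower, DESeq2 599 and 487, no filter 60 and 28, the globin share as a covariate 0 and 0, and leaving out normoxia library 1 and day 28 library 3 together 685 and 651. The replicate number as a block gave 162 and 24, with 64 of the 68 calls kept. The labels do not say whether the numbers pair the libraries. The deviations of same-numbered day 28 and day 56 libraries correlated at 0.0488, 0.161 and 0.0724. Of the 3 day 28 libraries 1 correlated best with its own number. With so few libraries these values cannot decide whether there was a pairing. Leaving out 1 library gave 2 to 580 higher and 1 to 422 lower. For intron reads, against 66 higher and 42 lower, the 6 libraries alone gave 249 and 274, DESeq2 363 and 408, no filter 101 and 97, the globin share as a covariate 12 and 5, and leaving out 1 library 8 to 411 and 1 to 365. Intron genes lower were 23 with the intron share as a covariate, 18 with the replicate block and 67 with upper-quartile factors. The medians of 13 of the 30 gene lists changed sign in at least 1 alternative, among them neutrophils (-0.34, up to 0.46), B cells (-0.20, up to 0.35), dendritic cells (-0.23, up to 0.24), MHC class II genes (0.01, down to -0.23) and ribosomal protein genes (0.14, down to -0.32). The cause of these differences was not tested. With 3 libraries a day, genes that missed the threshold may still differ between the days.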
